A study of Mus musculus with 4 samples.

Results

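The probes for 4 mouse miRNAs of epithelial differentiation, stem cells and secretory lineages, miR-203, miR-31, miR-375 and miR-148a, were followed in mouse small intestine, with and without Tlr3, before and after irradiation. Members were chosen by name, as every probe with one of these stems, main arm or star arm (the partner strand of the hairpin, marked with an asterisk in the array's older naming). This gave 8 of the 1096 mouse miRNA probes on the array: mmu-miR-203, mmu-miR-31, mmu-miR-375 and mmu-miR-148a, and the star arms mmu-miR-203*, mmu-miR-31*, mmu-miR-375* and mmu-miR-148a*.

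The study set mice that carry the Toll-like receptor gene Tlr3, whose product senses double-stranded RNA, against mice that lack it. The 4 groups were non-treated Tlr3+/+ intestine at 0 hr, non-treated Tlr3-/- intestine at 0 hr, and Tlr3+/+ and Tlr3-/- intestine 6 hr after 10 Gy of gamma-irradiation to the total body. Each group had 1 array of total RNA pooled from 3 mice, so no replicate spread could be measured and precision is limited by having 4 arrays. The sources used here do not give strain, age or how the allele was made. No label states the slides. As read from the deposited array names, both 0 hr arrays shared a slide and each 6 hr array had another of its own. On that reading effects of slide cannot be told apart from those of irradiation, or at 6 hr from those of genotype. With no non-treated intestine at 6 hr, irradiation and elapsed time cannot be told apart. Whole tissue was used, so fewer cells of a type and less miRNA per cell cannot be told apart either.

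A miRNA directs the silencing machinery to messenger RNAs mainly through its seed, bases 2 to 8 from its 5′ end. In mouse skin, miR-203 pushes epidermal cells out of the stem cell state by repressing p63. In mouse intestine, miR-31 is known as a stem cell miRNA that promotes crypt proliferation and regeneration after injury. miR-375 is best known from pancreatic islets, where it controls insulin secretion, and in the gut it is enriched in enteroendocrine cells. miR-148a represses the DNA methyltransferase Dnmt1 and is abundant in several epithelia. The star arms have few established roles.

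The mature sequences from RefSeq (GRCm38.p6) are shown, seed in capitals, to separate the members from each other and from the relatives of miR-148a. The arms of miR-31 are given because their signals diverged.

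miR-203: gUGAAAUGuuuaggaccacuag
miR-31: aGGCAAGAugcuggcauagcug
miR-31*: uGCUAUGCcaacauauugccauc
miR-375*: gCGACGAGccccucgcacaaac
miR-148a: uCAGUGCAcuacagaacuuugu
miR-148b: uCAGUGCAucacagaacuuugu
miR-152: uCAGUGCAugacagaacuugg

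Sequences were matched for 7 of the 8 member probes, and miR-375 is named only. The seeds of miR-203, miR-31 and miR-31* occurred in 0 other mature miRNAs of that table, while the seed of miR-148a was shared by miR-148b and miR-152. Outside the seed, miR-148a differed from miR-148b at 2 of 22 positions and from miR-152 at 3 of 21 compared positions. How far the array separates these 3 was not tested. In GRCm38.p6, miR-203 lies at chr12:112130927-112130948 on the plus strand. On minus strands lie miR-31 at chr4:88910614-88910635, miR-31* at chr4:88910577-88910599 and miR-148a at chr6:51269829-51269850. The gene Mir31 falls within the span of the long non-coding RNA gene Gm49890, Mir148a within that of the predicted protein-coding gene Gm38821, and Mir203 overlaps the miRNA gene Gm51289. Mir375 (chr1:74900658-74900721) overlaps no other annotated gene, and its nearest neighbour, Cfap65, is 1350 bp away. Exon structure was not used here.

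All 4 main arms were detected on every array, where detected means a raw intensity above the mean of the blank spots plus 2 SD. That threshold was 25.8 and 26.5 for Tlr3+/+ and Tlr3-/- at 0 hr, and 26.1 and 29.2 at 6 hr. miR-31 stood at 8.75 to 10.8 times the threshold, miR-203 at 5.36 to 7.42 times, miR-148a at 3.72 to 4.55 times and miR-375 at 2.87 to 3.24 times. Of the star arms, miR-375* (2.19 to 2.26 times) and miR-31* (1.38 to 2.11 times) were also detected on every array. miR-203* was above the threshold on 3 arrays by at most 1.04 times and miR-148a* on 0, at raw intensities of 24.6 to 27.3. These last 2 are described no further, because a negative control probe averaged up to 26.2, 26.7, 27.5 and 29.7 on the arrays in the order above.

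**Figure D1:**
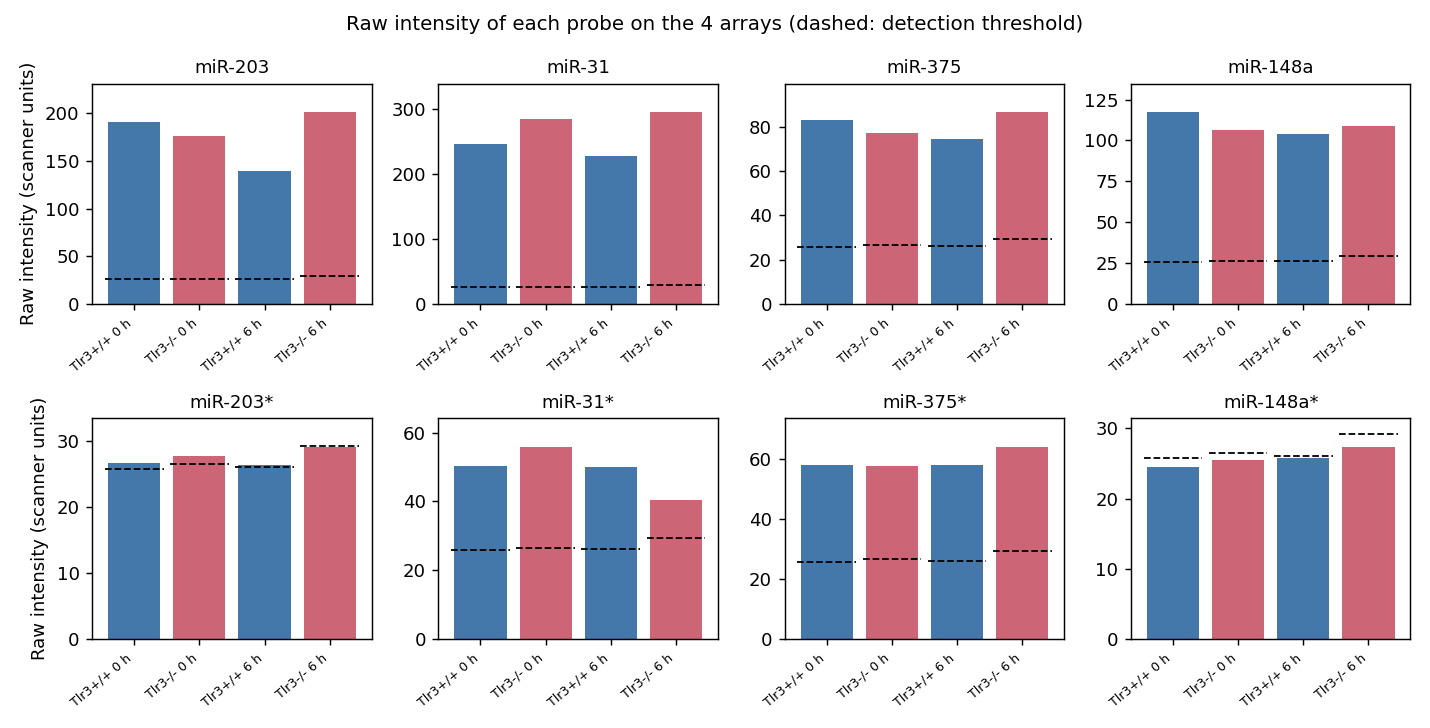
Raw intensity (y axis, linear scanner units from 0) of the 8 probes on the 4 arrays, with each array's detection threshold as a dashed line. Blue bars are Tlr3+/+ and red bars Tlr3-/-. miR-203 is lowest in irradiated Tlr3+/+ intestine and miR-31* is lowest in irradiated Tlr3-/- intestine.

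The members were grouped as epithelial miRNAs, but the tissue was whole small intestine, so its epithelial content was checked with other miRNAs. Stroma was present too. Of 8 listed markers of smooth muscle and stroma, the 7 matched by name had a summed raw intensity above the blank mean of 2825 to 3433. The listed miR-1 had no probe of that exact name, and the array's miR-1a was not counted. All 8 markers of intestinal epithelium listed for this purpose (miR-192, miR-194, miR-215, miR-200a, miR-200b, miR-200c, miR-141 and miR-429) were detected on every array, with a summed raw intensity above the blank mean of 16037 to 19110. Pancreas also holds much miR-375, in its islets, and liver much miR-148a. The acinar and liver markers miR-216a, miR-216b, miR-217 and miR-122 were at or near background, with a summed signal of 3.6 to 4.7. These markers do not cover islets. miR-205, a marker of squamous epithelium, where miR-203 is abundant, read 27.2 to 29.0, near the threshold. Of the 3 red cell markers, miR-451 differed most between the arrays. miR-451, an erythroid miRNA, gave a raw intensity of 42.3 at 0 hr and 129 at 6 hr in Tlr3+/+, against 171 and 82.7 in Tlr3-/-, and the 3 red cell markers had a summed signal of 26.1 to 156. Most of that sum came from miR-451. Above the blank mean miR-486 read 6.21 to 11.15 and miR-144 read 0.56 to 2.18, and neither ranked the arrays as miR-451 did. The part of blood content in the members' values was not tested.

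Ratios below are log2 values after background correction with an offset and quantile normalization, which the description of the processing explains. The offset shrinks ratios of dim probes. Technical spread was taken from 2 spike controls spotted 8 times per array, whose log2 intensities varied between spots with an SD of 0.105. That gives a spot SD of 0.148 for a ratio of 2 arrays and of 0.209 for a difference of 2 ratios. It does not include variation among mice or RNA pools. It was taken on raw intensities of bright spots, with mean log2 values of 11.7 to 11.9. The members are dimmer and their ratios are shrunk by the offset, so the spot SD is a reference size, not their measured noise. No member reached 2-fold in any comparison on this scale. The shares of all compared miRNAs at or beyond 2-fold were 1.76% of 680 after irradiation in Tlr3+/+, 0.64% of 625 after irradiation in Tlr3-/-, 0.305% of 656 between genotypes at 0 hr and 0% of 645 between genotypes at 6 hr. For the difference of the irradiation ratios, 0.524% of 573 lay at or beyond 1. With shares this low, 0 members at 2-fold says little about the members.

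miR-203, the differentiation miRNA, gave a raw intensity of 191 at 0 hr and 140 at 6 hr in Tlr3+/+, against 177 and 201 in Tlr3-/-. The low array was the irradiated Tlr3+/+ one, and the other 3 were closer together. On the normalized log2 scale the levels ran 7.90 (Tlr3+/+ at 0 hr), 7.73 (Tlr3-/- at 0 hr), 7.67 (Tlr3-/- at 6 hr) and 7.36 (Tlr3+/+ at 6 hr), and the middle pair differed by less than the spot SD. After irradiation miR-203 had a log2 ratio of -0.54 in Tlr3+/+, 1.45-fold lower and 3.63 times the spot SD. In 5 other scalings this ratio was -0.77 to -0.43. In Tlr3-/- the ratio was -0.06, within the spot SD, and it was 0.04 to 0.29 in the other scalings, so its direction there depends on the scaling.

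The difference of these irradiation ratios, Tlr3-/- minus Tlr3+/+, was 0.48 for miR-203 and 0.55 to 0.81 in the other scalings. Among the 100 miRNAs above 3 times the threshold on all arrays 7 had a higher difference, and among all 573 detected on every array, most of them dim and shrunk by the offset, 8 did. At 6 hr miR-203 was 1.24-fold higher in Tlr3-/- than in Tlr3+/+ (log2 0.31, and 0.35 to 0.47 in the other scalings), whereas at 0 hr it was 1.13-fold lower (log2 -0.17, and -0.36 to -0.10). Each cell of the design held 1 array, so the difference could not be tested.

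Bright miRNAs in general lay below 0 after irradiation in Tlr3+/+, which bears on miR-203. The 104 miRNAs above 3 times the threshold on both Tlr3+/+ arrays had a median log2 ratio of -0.20, and 5 of them were lower than miR-203. For the 8 epithelial markers the median was -0.33 in Tlr3+/+, 0.00 in Tlr3-/- and 0.25 for the difference of the ratios. Quantile normalization sets some very bright probes to a ratio of exactly 0, miR-194 and miR-215 in Tlr3+/+ among them. Taken relative to the median of the epithelial markers, miR-203 was at -0.20 after irradiation in Tlr3+/+ (-0.43 to -0.18 in the other scalings). In Tlr3-/- it was at -0.06 on that footing, against 0.13 to 0.21 in the other scalings. The relative difference between the genotypes' irradiation ratios was 0.23 (0.40 to 0.59). These relative values measure how far miR-203 departed from other epithelial miRNAs on the same arrays, and any share of epithelial cell loss in them was not tested.

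**Figure D2:**
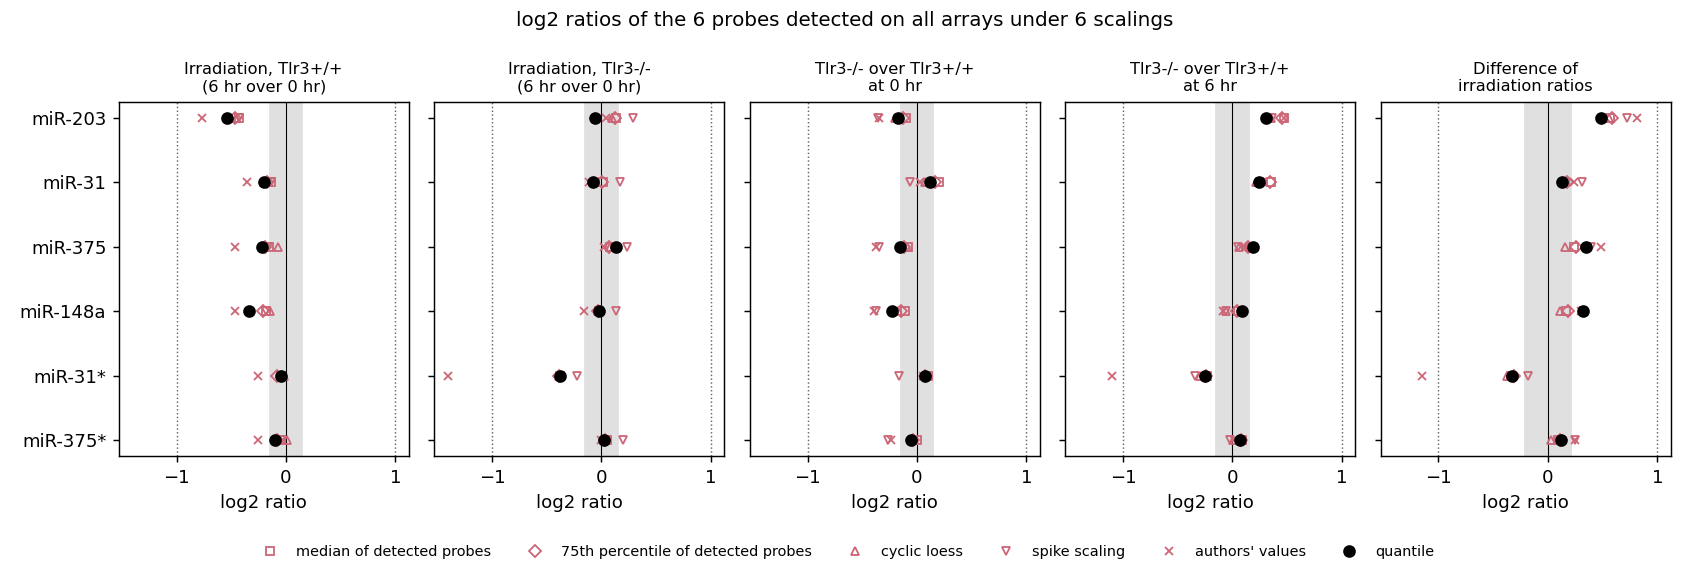
log2 ratios (x axis) of the 6 probes detected on all arrays in each comparison. Black points are quantile-normalized values, red symbols 5 other scalings, grey bands 1 spot SD either side of 0 and dotted lines 2-fold. miR-203 lies below 0 after irradiation in Tlr3+/+ in every scaling, and miR-31* reaches -1 in the authors' values.

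miR-31, the stem cell and regeneration miRNA, gave a raw intensity of 246 at 0 hr and 228 at 6 hr in Tlr3+/+, against 285 and 295 in Tlr3-/-. Both Tlr3-/- arrays read above both Tlr3+/+ arrays. Normalized log2 levels were 8.32 and 8.24 in Tlr3-/- at 0 and 6 hr, and 8.20 and 7.997 in Tlr3+/+. Of the neighbours in that order, the first 3 lie within the spot SD of each other. The genotype ratio was 0.12 at 0 hr, within the spot SD, and -0.06 to 0.20 in the other scalings. At 6 hr it was 0.25, 1.66 times the spot SD, and 0.22 to 0.36 in the other scalings. Irradiation ratios were -0.20 in Tlr3+/+ (-0.36 to -0.14) and -0.07 in Tlr3-/-, where the other scalings gave -0.12 to 0.17. Relative to the epithelial markers, miR-31 was 0.21 higher in Tlr3-/- at 0 hr (0.20 to 0.24 in the other scalings) and 0.13 higher at 6 hr (0.20 to 0.26).

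miR-31*, the other strand of the same hairpin, did not follow it. It gave a raw intensity of 50.2 at 0 hr and 50.1 at 6 hr in Tlr3+/+, against 55.8 and 40.3 in Tlr3-/-. The low array was irradiated Tlr3-/-, where the main arm had its highest raw intensity. On the normalized scale the main arm was highest in Tlr3-/- at 0 hr instead (8.32 against 8.24). The irradiated Tlr3-/- array also had the highest background, with a blank mean of 27.3 against 24.5 to 24.9 on the others. Above the blank mean, miR-31* stood at 25.7 and 30.9 at 0 hr and at 25.4 and 12.99 at 6 hr, in the same order of genotypes, while the blank spots of these arrays had SDs of 0.62 to 0.93.

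After irradiation in Tlr3-/- the log2 ratio of miR-31* was -0.38, with 10 of 625 compared miRNAs lower, and it was -0.04 in Tlr3+/+. Without the offset the ratio was farther from 0, at -1.28 after subtraction of the blank mean. In the authors' normalized values miR-31* went from 141 to 53.2, a log2 ratio of -1.41, while 3.2% of the 625 miRNAs were at least 2-fold lower on that scale. Between genotypes at 6 hr the authors' values gave -1.10 (4.5% of 645 at least 2-fold lower), and the difference of the irradiation ratios was -1.15 (5.76% of 573 at or below -1). The range over all 5 other scalings was -1.41 to -0.22 for the ratio in Tlr3-/-, so the direction held in each but the size rests on how dim signal is treated.

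Set against each other within arrays, main arm minus star arm moved by -0.16 with irradiation in Tlr3+/+ and by 0.30 in Tlr3-/-. This difference of ratios was 0.46, and 0.49 to 1.39 in the other scalings. At 0 hr the arms had nearly the same genotype ratio, 0.12 for miR-31 and 0.08 for miR-31*. The part of the higher background of the irradiated Tlr3-/- array in this divergence was not tested.

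**Figure D3:**
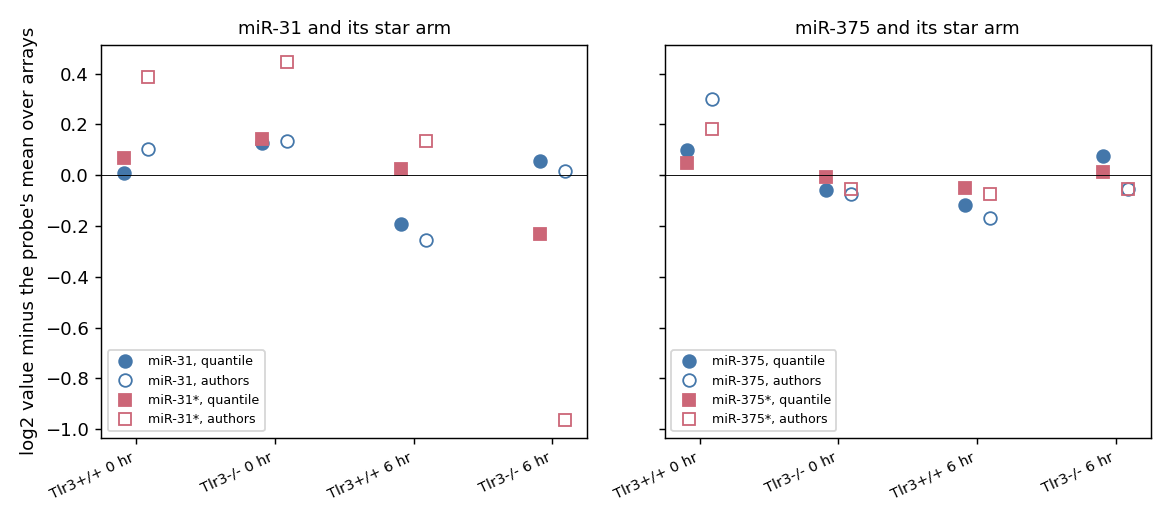
log2 values minus each probe's mean over the 4 arrays (y axis) by group, for miR-31 and miR-375 (circles) and their star arms (squares). Filled symbols are quantile-normalized and open symbols the authors' values. The arms of miR-31 separate in irradiated Tlr3-/- intestine, where miR-31* is at -0.23 (quantile-normalized) and miR-31 at 0.05. In irradiated Tlr3+/+ intestine the arms separate the other way, with miR-31* at 0.02 and miR-31 at -0.19.

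miR-375, the endocrine and secretory miRNA, gave a raw intensity of 83.4 at 0 hr and 74.8 at 6 hr in Tlr3+/+, against 77.4 and 86.7 in Tlr3-/-. It was lower after irradiation in Tlr3+/+ and higher in Tlr3-/-. The log2 ratios were -0.22 (-0.47 to -0.07 in the other scalings) and 0.13 (0.02 to 0.23), and the latter is within the spot SD. Their difference was 0.35, 1.66 times its spot SD. Relative to the epithelial markers this difference shrank to 0.10, and it was 0.00 to 0.26 in the other scalings. miR-375* had raw intensities of 58.1 and 57.9 at 0 hr and of 57.9 and 64.0 at 6 hr, Tlr3+/+ first. Its ratios in the 4 comparisons, -0.10 to 0.06, were all within the spot SD.

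miR-148a gave a raw intensity of 117 at 0 hr and 104 at 6 hr in Tlr3+/+, against 106 and 109 in Tlr3-/-. The high array was non-treated Tlr3+/+. After irradiation the log2 ratio was -0.34 in Tlr3+/+ (-0.46 to -0.15 in the other scalings) and -0.02 in Tlr3-/-, within the spot SD. Between genotypes it was -0.23 at 0 hr (-0.39 to -0.11) and 0.09 at 6 hr, the latter turning below 0 in 3 of 5 other scalings. Relative to the epithelial markers miR-148a was at -0.01 after irradiation in Tlr3+/+ and at -0.02 in Tlr3-/-. After irradiation it thus moved with them on this scale. The other scalings gave -0.12 to 0.13 and -0.03 to 0.08. Between genotypes it was at -0.14 relative to them at 0 hr (-0.18 to -0.02 in the other scalings). At 6 hr it was at -0.03 (-0.11 to -0.06).

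The seed relatives of miR-148a were dim. miR-148b had raw intensities of 39.9 and 37.3 at 0 hr and of 34.6 and 39.95 at 6 hr, Tlr3+/+ first, and miR-152 had 46.7, 45.8, 45.4 and 49.1 in the same order. As for miR-148a, the irradiated Tlr3+/+ array gave each its lowest raw intensity. The irradiation ratios in Tlr3+/+ were -0.19 for miR-148b and -0.07 for miR-152, against -0.04 and 0.00 in Tlr3-/-. In the authors' values the miR-148b ratio in Tlr3+/+ was -0.87.

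**Figure D4:**
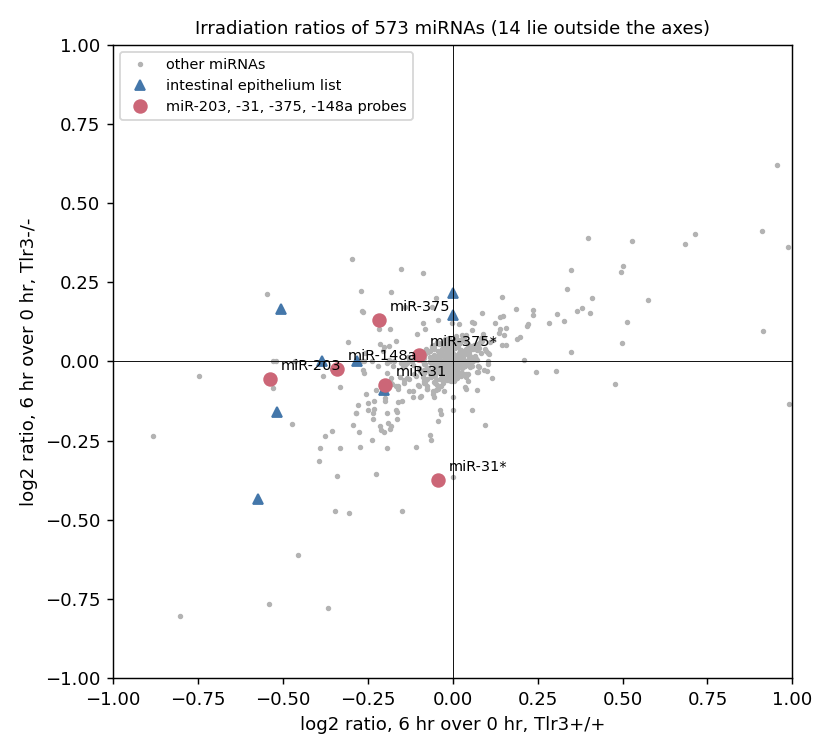
log2 irradiation ratio in Tlr3+/+ (x axis) against Tlr3-/- (y axis) for the 573 miRNAs detected on all arrays, of which 14 lie outside the axes. Red points are the members and blue triangles the 8 epithelial markers. miR-203 (-0.54 and -0.06) lies far to the left and close to 0 on the y axis, and miR-31* (-0.04 and -0.38) lies below the main cloud.

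Side by side, the 6 members detected on all arrays had a median log2 ratio of -0.21 after irradiation in Tlr3+/+, against -0.01 for all 680 miRNAs but -0.20 for the 104 bright ones. In Tlr3-/- their median was -0.04, against 0.00 for all 625 and -0.07 for the 102 bright ones. Between genotypes at 6 hr it was 0.14, against 0.01 for all 645 and 0.07 for the 104 bright ones, and miR-31* was the member below 0. At 0 hr it was -0.11, against 0.00 for all 656 and 0.00 for the 107 bright ones. The members' irradiation medians were therefore close to those of bright miRNAs in general. However, miR-375, miR-375* and miR-31* were not among the bright miRNAs in any comparison. Their ratios are shrunk more by the offset, so these medians mix bright and dim probes.

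A limma fit of genotype and irradiation over all 4 arrays, with 1 residual degree of freedom, asked whether either averaged change exceeded the disagreement between the strata. For irradiation 0% of 797 miRNAs passed an adjusted p of 0.05 (100 at an unadjusted p under 0.05), and for genotype 0% (38 at an unadjusted p under 0.05). For miR-203 the averaged irradiation change was -0.30 ± 0.16 (SE), with a limma adjusted p of 0.545. For miR-31 the averaged genotype change was 0.18 ± 0.045 (SE), higher in Tlr3-/- at both times, with a limma adjusted p of 0.775. The adjusted p of miR-31 for irradiation was 0.423, with a change of -0.14 in limma. No member passed in any of the other settings tried. These p-values rest on the disagreement between genotypes or times, not on replicate pools.

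The profile over the 4 arrays was also compared with that of other miRNAs above 3 times the threshold, as the root mean square difference of log2 values after each probe's mean was taken off. For miR-203 the nearest of 99 were miR-16 (0.01), let-7b (0.05) and miR-15a (0.06), all lowest in irradiated Tlr3+/+. For miR-148a they were miR-200c (0.02), miR-106b (0.04) and miR-106a (0.04). For miR-31 they were miR-30d (0.03), miR-29c (0.04) and miR-10b (0.05), and for miR-375, of 100, miR-30a (0.03), miR-30b (0.03) and miR-497 (0.04). For miR-375* they were miR-22 (0.02), miR-30b (0.03) and miR-5100 (0.04). For miR-31* the nearest, miR-3968, was 0.05 away, farther than the nearest of any of the other 5 members. With 4 arrays such likeness is a description only.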

How the data were processed

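Per the labels' protocols, total RNA of small intestine (miRNeasy kit, Qiagen) was labelled with Hy5 (Exiqon kit), 1 colour per array. Per the file headers, the authors deposited each probe's raw intensity and its intensity after background subtraction. The headers also give its intensity after global normalization, with a median of 25 over filled probes of the Tlr3+/+ 0 hr array. Their value table for the series matches the globally normalized intensity within 0.005. The sources used here name no scanner or software.

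Raw intensity was corrected with normexp on 1818 blank spots (nec, limma 3.58.1, R 4.3.3, offset 50), quantile normalized over 1135 miRNA probes (39 viral) and taken to log2. The detection threshold was the mean plus 2 SD of the blank spots, 5% left out at each end. It matched the authors' filled cells with 0 differences. Ratios used miRNAs detected on both arrays, and limma (eBayes, Benjamini-Hochberg) those detected on at least 2 of 4. The fit was tried on simulated data with changes of at least 2-fold in brighter probes, equal in both genotypes. That does not cover dim probes, smaller changes or changes in a single genotype. Array names were matched to RefSeq arms by hand. Members and lists were chosen with earlier results of these data known. Named were all members, listed markers, and the 3 nearest profiles per member. The lists were intestinal epithelium, secretory and endocrine lineage, smooth muscle and stroma, leukocyte, red cell, pancreas and liver, squamous epithelium, neuron and seed relatives. Alternatives changed scaling, background, detection filter and fold limit.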

Additional observations from a re-analysis of the deposited data

Results flagged for a closer look

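miR-375 had irradiation ratios on opposite sides of 0 in the genotypes, -0.22 in Tlr3+/+ and 0.13 in Tlr3-/-, a difference of 0.35 on the log2 scale (0.15 to 0.49 in 5 other scalings). Its star arm miR-375* did the same with -0.10 and 0.02, a difference of 0.12 (0.03 to 0.25), and both of its ratios changed sign in 1 of 5 other scalings. Neither difference was tested, since each genotype and time had 1 array.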

How the results depend on the processing

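Counts of miRNAs at or beyond 2-fold are given in the order irradiation in Tlr3+/+, irradiation in Tlr3-/-, genotype at 0 hr, genotype at 6 hr, difference of the irradiation ratios, and were 12, 4, 2, 0 and 3. Values without an offset raised them: the authors' values gave 73, 38, 25, 43 and 65, and subtraction of the blank mean gave 65, 46, 24, 32 and 67. In each of these settings 1 member, miR-31*, reached 2-fold in Tlr3-/- after irradiation, between genotypes at 6 hr and in the difference. An offset of 16 gave 19, 8 and, for the difference, 9. No background correction gave 7 in Tlr3-/- and 5 differences, and spike scaling 7 and 1. A limit of 1.5-fold gave 23, 15, 6, 3 and 15 miRNAs with 0 members, and 3-fold gave 3, 0, 0 and, for the difference, 1. A filter at 3 times the threshold gave 0 at 0 hr and 1 difference. For irradiation, limma passed 3 miRNAs after 75th percentile scaling, 1 after cyclic loess, 1 after median scaling and 35 after spike scaling, where 3 passed for genotype. No member was among them. Spike scaling shifted the median of all miRNAs by -0.25 at 0 hr, 0.15 in Tlr3-/- and 0.17 for the difference. The authors' values shifted it by -0.14 in Tlr3+/+ and -0.17 at 0 hr, and subtraction of the blank mean by -0.12 in Tlr3+/+. Of 303 alternative values of member ratios, 238 moved by less than the spot SD and 19 changed sign. The 303 include settings that changed only the detection filter, which cannot move a ratio, so the unmoved share is overstated. Leaving out a replicate could not be done with 1 array per group. Slide as a block could not be fitted because, as read from the array names, each slide held 1 time.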

Other observations

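The list of secretory and endocrine lineage miRNAs other than miR-375 was also measured. miR-7a, which shares islet and endocrine expression with miR-375, had irradiation ratios of -0.24 in Tlr3+/+ and -0.25 in Tlr3-/-, and the latter was -0.36 to 0.00 in 5 other scalings. The cluster of miR-182, miR-183 and miR-96, known from sensory epithelia, had -0.16, -0.03 and -0.16 in Tlr3+/+ and -0.05, -0.05 and -0.09 in Tlr3-/-, where each turned above 0 in at least 1 other scaling. None of the 5 list members reached 2-fold on the quantile-normalized scale.

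Medians of the irradiation ratios in Tlr3+/+ and Tlr3-/- were -0.16 and -0.13 for smooth muscle and stroma (7 miRNAs compared), -0.23 and -0.16 for leukocyte (6 compared), and -0.07 and -0.02 for the seed relatives of miR-148a. Left out of the smooth muscle and stroma list, miR-1a had irradiation ratios of 0.04 and 0.02. The red cell list had medians of 0.58 (2 compared) and 0.00 (3 compared), over different members. Its brightest member, miR-451, had irradiation ratios of 1.11 in Tlr3+/+ and -0.94 in Tlr3-/-, and genotype ratios of 1.56 at 0 hr and -0.49 at 6 hr, with the same signs in 5 other scalings. The list's other members had irradiation ratios of 0.00 to 0.04. The neuron list had 1 miRNA compared in each, at -0.02 and -0.03. The secretory list had -0.16 and -0.07. Pancreas and liver, and squamous epithelium, had 1 miRNA each compared in Tlr3+/+, at 0.00 and 0.01, and 0 in Tlr3-/-.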
